A study of Mus musculus with 4 samples.

Results

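*Esr1*, *Pgr* and *Nr3c1* encode the receptors for estrogen, progesterone and glucocorticoids, and *Foxa1* and *Cited1* encode nuclear partners of the estrogen receptor. All 5 genes were found by symbol among the 52636 genes of a single cell RNA-sequencing table of luminal mammary epithelial cells, and their levels were followed over 4 libraries, 13 clusters and 3 luminal classes. The WT mice were ErbB3+/+;MMTV-Cre and the mutant mice ErbB3V943R/V943R;MMTV-Cre, both on C57BL/6N and 6 weeks old, so that the controls carried the Cre transgene too. Glands of 3 mice per genotype were pooled and digested, and epithelial cells were enriched with an EasySep kit and sorted for luminal cells. Each pool was sequenced as 2 libraries with the 10x Chromium 3' v2 chemistry, which counts unique molecular identifiers (UMIs), tags that allow each mRNA captured by its 3' end to be counted once. The 2 libraries of a genotype, called A and B here, share 1 pool of mice and show technical spread only, so no test between genotypes was made and no p-value is given. MMTV-Cre is active in mammary epithelium, and the V943R exon replaces an inserted wild-type copy, which ends in the 3' sequence of human growth hormone, only in cells in which Cre has acted, which the table does not show cell by cell. The V943R change weakens the activation of partner receptors by the ERBB3 kinase domain, and the comparison asks how luminal cells of the pubertal gland look when ERBB3 is altered.

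Steroid receptors are transcription factors that bind DNA once a hormone occupies them. In the mammary gland, *Esr1* and *Pgr* mark the hormone-sensing mature luminal cells, which pass the hormone signal to their neighbors through secreted factors, and *Pgr* is itself a classical target of the estrogen receptor. FOXA1 is a pioneer factor that opens chromatin for the estrogen receptor, and CITED1 is a coactivator without a DNA-binding domain of its own that joins the estrogen receptor to the histone acetyltransferases CBP and p300. *Nr3c1*, the glucocorticoid receptor, acts in many cell types and takes part in the hormonal preparation for lactation.

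The 4 libraries held 6849 to 9627 cells each and 30019745 to 38009351 UMIs, and the median UMIs of a cell lay between 3154 and 4027. Levels are given as CPM, the UMIs of a gene for every 1000000 UMIs of the same cells. *Erbb3*, the targeted gene, stood at 60.9 and 63.3 CPM in WT libraries A and B and 29.8 and 30.8 CPM in mutant libraries A and B. The mutant libraries were below the WT libraries for *Erbb3* in each of clusters 1 to 11, and the count does not tell the altered transcript from the unaltered one. Transcripts of the inserted copy end in the human growth hormone sequence, and whether they enter this count was not tested. The paper, with its own processing, reports a smaller decrease of *Erbb3* in the mutant sample. Cells labelled mature luminal (ML, clusters 4 to 11) had 6802 and 6987 CPM of the summed markers *Prlr*, *Areg*, *Wnt4* and *Ly6a* in the WT libraries. Cells labelled luminal progenitor (LP, clusters 1 and 2) had 704 and 754 CPM of them. The progenitor markers *Kit*, *Elf5*, *Aldh1a3*, *Cd14* and *Csn3* summed to 3991 and 4268 CPM in LP and 73.4 and 70.1 CPM in ML. In LI the progenitor set stood at 1208 and 1316 CPM and the mature luminal set at 4889 and 4792 CPM in the WT libraries. Cluster 3, labelled luminal intermediate (LI), had 1035 of its 2095 cells (49.4%) in the top 6% of scores from a doublet caller that made too few calls for these to be used, a range that held 2.79% of ML cells. Ratios between genotypes are therefore also given without these cells where they moved. Between any pair of libraries 71 to 111 cell barcodes were the same, and 511 of 31923 barcodes were found in more than 1 library.

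Stretches before the start sites of *Cited1*, *Foxa1* and *Pgr* are shown here because the levels of these 3 genes moved together or apart over the ML clusters, as given further on. RefSeq promoter windows were used for 4 of the 5 genes, and *Nr3c1* was left out of the search. The bases shown are those of the 250 bases before a start that lie outside the annotated exons of the gene. They are on build GRCm38.p6, written 5' to 3'. Capitals mark a match to 1 of 7 motifs, which were searched on both strands over the whole 250 bases. These were the single estrogen receptor site AGGTCA, the full estrogen receptor element (AGGTCA, 3 bases of any kind and TGACC, so that it contains the single site), the single site AGAACA of progesterone and glucocorticoid receptors, their full element (AGAACA, 3 bases of any kind and TGTTC), the forkhead motif TGTTTAC, the STAT motif TTCNNNGAA and the GATA motif AGATAA.
Cited1, outermost start (chrX:102252182-102252431, minus strand): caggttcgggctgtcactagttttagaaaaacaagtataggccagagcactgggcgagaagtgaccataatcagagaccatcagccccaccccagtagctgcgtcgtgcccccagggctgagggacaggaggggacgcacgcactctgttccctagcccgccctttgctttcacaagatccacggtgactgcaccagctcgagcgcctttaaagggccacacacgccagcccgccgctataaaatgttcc
Cited1, innermost start (chrX:102250947-102251026, minus strand): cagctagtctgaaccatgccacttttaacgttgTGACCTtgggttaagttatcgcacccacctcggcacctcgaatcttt
Foxa1 (chr12:57546122-57546361, minus strand): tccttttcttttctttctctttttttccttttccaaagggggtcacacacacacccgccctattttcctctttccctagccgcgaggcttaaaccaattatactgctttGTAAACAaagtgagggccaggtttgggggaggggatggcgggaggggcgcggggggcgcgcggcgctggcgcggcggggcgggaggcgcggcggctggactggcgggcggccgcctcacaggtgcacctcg
Pgr (chr9:8899583-8899832, plus strand): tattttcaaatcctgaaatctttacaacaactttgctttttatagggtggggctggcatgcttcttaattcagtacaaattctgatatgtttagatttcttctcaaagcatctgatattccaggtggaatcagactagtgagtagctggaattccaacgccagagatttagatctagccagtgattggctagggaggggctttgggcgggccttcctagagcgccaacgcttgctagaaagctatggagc
Of the innermost *Cited1* window 80 bases lie outside exons and are shown. The outermost of 3 *Cited1* windows and the *Pgr* window held none of the 7 motifs. The innermost *Cited1* window held 1 single estrogen receptor site on the reverse strand, a motif that 14% of all 32851 windows held. The *Foxa1* window held 1 forkhead motif on the reverse strand, which 3.17% of windows held, and the inner of 2 *Esr1* windows held 1 STAT motif, which 7.02% of windows held. The other motifs, held by 0.0517% (estrogen receptor element), 0.0304% (full progesterone and glucocorticoid receptor element), 16.1% (single AGAACA site) and 9.99% (GATA) of windows, were in none of the windows of these 4 genes. A match is a run of letters and not a bound site.

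The annotation places *Cited1* (ENSMUSG00000051159) on chromosome X from 102247381 to 102252181, *Foxa1* (ENSMUSG00000035451) on chromosome 12 from 57540628 to 57546916, *Pgr* (ENSMUSG00000031870) on chromosome 9 from 8899833 to 8968611 and *Esr1* (ENSMUSG00000019768) on chromosome 10 from 4611593 to 5005614, all on GRCm38.

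In WT cells 4 of the 5 genes were highest in the ML class and *Nr3c1* was highest in LP. As given further on, LP UMIs of the 4 genes highest in ML could not be told apart from free RNA. Their ratios over LP rest on those UMIs. Ratios are log2 ratios of CPM, and ranges in parentheses are exact 95% intervals for counting error only. Since the classes were made from the expression of these same cells, differences between classes are a description. Because the 3' ends of different genes are captured unequally, levels were not compared between genes.

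*Esr1* stood at 41.3 and 49.9 CPM in WT libraries A and B and 39.4 and 44.0 CPM in mutant libraries A and B among ML cells. Among LP cells it stood at 10.7 and 10.9 CPM in WT and 7.09 and 8.46 CPM in the mutant, and among LI cells at 38.8 and 36.0 CPM in WT and 35.1 and 36.5 CPM in the mutant. In WT its level in ML was 4.24 times that in LP, a log2 ratio of 2.08 (1.78 to 2.40), and every library had ML above LP. ML exceeded LI by a smaller step, with a log2 ratio of 0.29 (0.11 to 0.47) in WT.

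*Pgr* had the largest step between the classes of the receptors highest in ML. Among ML cells it stood at 137 and 154 CPM in WT libraries A and B and 145 and 170.0 CPM in mutant libraries A and B, among LI cells at 107 and 103 CPM in WT and 108 and 131 CPM in the mutant and among LP cells at 16.4 and 22.1 CPM in WT and 12.9 and 20.5 CPM in the mutant. The log2 ratio of ML over LP was 2.91 (2.69 to 3.14) for WT and 3.21 (2.98 to 3.46) for mutant cells. In all 4 libraries the order was ML, then LI, then LP.

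*Nr3c1* had the opposite order. Among LP cells it stood at 40.4 and 51.5 CPM in WT libraries A and B and 47.3 and 44.6 CPM in mutant libraries A and B, among LI cells at 25.5 and 27.0 CPM in WT and 19.6 and 22.5 CPM in the mutant and among ML cells at 9.10 and 10.2 CPM in WT and 9.58 and 9.23 CPM in the mutant. The log2 ratio of ML over LP was -2.26 (-2.45 to -2.07) for WT and -2.29 (-2.49 to -2.09) for mutant cells. The glucocorticoid receptor was highest where the ovarian hormone receptors were lowest. *Nr3c1* lies on chromosome 18 from 39410545 to 39519421 (ENSMUSG00000024431).

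*Foxa1* followed the ovarian hormone receptors. It stood at 149.8 and 157 CPM in WT libraries A and B and 136 and 147 CPM in mutant libraries A and B among ML cells, at 122 and 134 CPM in WT and 113 and 140.0 CPM in the mutant among LI cells and at 27.3 and 28.1 CPM in WT and 24 and 23.9 CPM in the mutant among LP cells. Its log2 ratio of ML over LP was 2.47 (2.28 to 2.66) in WT and that of ML over LI was 0.27 (0.17 to 0.36).

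*Cited1* also stood highest in ML cells, with 1442 and 1499.6 CPM in WT libraries A and B and 1066 and 1085 CPM in mutant libraries A and B. Among LI cells it stood at 959.9 and 1018 CPM in WT and 651 and 739 CPM in the mutant and among LP cells at 278 and 262 CPM in WT and 181 and 225 CPM in the mutant. The log2 ratio of ML over LP was 2.45 (2.39 to 2.51) for WT and 2.39 (2.32 to 2.46) for mutant cells. Without the top 6% of doublet scores the WT ratio was 3.21.

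The share of cells with a UMI shows how far the LP values can be read. Clusters 12 and 13, 240 cells with the label rare, lack a luminal label, and the median WT cell in them had 1985 and 1899 UMIs, against 1900.0 and 2127 in LP of the 2 WT libraries and 3246 and 3809 in ML. In the WT libraries A and B, fibroblast markers summed to 6769 and 5033 CPM and endothelial markers to 2585 and 2043 CPM in cluster 12, and immune markers to 21699.6 and 15940.4 CPM in cluster 13. The mature luminal markers summed to 2760.1 and 3185 CPM in cluster 12 and 2199.8 and 2804 CPM in cluster 13, which is below ML and above LP. UMIs of luminal genes in such cells can come from free RNA in the droplets, from doublets with luminal cells or from the cells themselves. These sources were not told apart. A *Cited1* UMI was found in 18.7% of WT LP cells, and in 20.9% and 28.9% of WT cells of clusters 12 and 13. A *Pgr* UMI was found in 4.56% of LP cells and in 18.6% and 14.5% of clusters 12 and 13, and a *Foxa1* UMI in 5.72%, 11.6% and 14.5%. For *Esr1* these shares were 2.70%, 6.98% and 2.41%, from 4 and 3 UMIs in the rare clusters. The WT LP shares of *Cited1*, *Pgr* and *Foxa1* were below those of both rare clusters and that of *Esr1* was close to the share in cluster 13. The levels did not all go this way, and the rare clusters were uneven. *Cited1* stood at 219 and 285 CPM in cluster 12 and 122 and 1046 CPM in cluster 13 of WT libraries A and B, so that LP of library A, at 278 CPM, was above both. In mutant LP *Cited1* stood between its level in cluster 12, 57.3 CPM, and that in cluster 13, 344 CPM, and *Foxa1* had 0 UMIs in the 33 mutant cells of cluster 12. The mature luminal markers were higher in the rare clusters than in LP, so these clusters may overstate the free RNA of LP. With this and so few cells, LP UMIs of these 4 genes could not be told apart from free RNA. Whether cells of the rare clusters express *Esr1* themselves was not tested. No expression in LP was read from them. In ML, *Cited1* was found in 76.9%, *Foxa1* in 41.1%, *Pgr* in 40.3% and *Esr1* in 16.0% of WT cells, above both rare clusters. These shares were not thinned, and the deeper ML cells would have more of them from depth alone. By CPM, *Cited1*, *Foxa1* and *Pgr* in ML were above both rare clusters in both WT libraries. *Esr1* was not, with 43.8 CPM in cluster 12 and 41.3 CPM in ML of WT library A, though cluster 12 had 4 UMIs over both WT libraries. *Nr3c1* was found in 11.5% of WT LP cells, in 3.73% of WT ML cells and in 14% and 4.82% of clusters 12 and 13. Because many cell types express it, those clusters give no background for *Nr3c1*, and the part of free RNA in its ML share was not tested. After each cell was thinned to 1000 UMIs, 45 WT and 252 mutant cells being too shallow, the WT shares in LP, ML, cluster 12 and cluster 13 were 9.72%, 54.2%, 14% and 21.7% for *Cited1*. For *Nr3c1* they were 4.76%, 0.875%, 4.65% and 1.20%.

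Within the ML class *Cited1* varied most. Its WT level was highest in cluster 5 with 2496 and 2729 CPM in libraries A and B, followed by cluster 6 with 2339.6 and 2402 CPM, cluster 11 with 1988 and 1948 CPM and cluster 7 with 1532 and 1605 CPM. Clusters 4, 8 and 9 and the LI cluster 3 came next, between 989 and 1190.2 CPM. Cluster 10 stood apart among ML cells, with 445 and 412 CPM, and the LP clusters 2 and 1 had 307 and 429 CPM and 268 and 215 CPM. From the lowest to the highest ML cluster *Cited1* spanned 6.12-fold. Of the 10 steps between neighbors in this order, 7 had both WT libraries of the higher cluster above both of the lower one, and the steps from cluster 4 to 8, from cluster 9 to 3 and from cluster 10 to 2 did not. In the mutant all 10 steps were separated, with clusters 5, 6, 11 and 7 again first, then clusters 9, 8, 4, 3, 2, 10 and 1.

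The receptors differed less among ML clusters. *Pgr* was highest in clusters 9, 10, 8 and 4, from 178 down to 159.8 CPM in WT, and lowest in cluster 5 with 102 and 107 CPM and cluster 6 with 106 and 120.2 CPM in libraries A and B. Of its 10 neighboring steps in WT only the one from cluster 5 to the LP cluster 2 separated the libraries. *Esr1* ranged from 72.9 CPM in cluster 9, from 52 UMIs, to 29.7 CPM in cluster 5, and 3 of its 10 neighboring steps were separated, those below cluster 3. *Nr3c1* stood between 7.48 and 11.6 CPM in the ML clusters and between 44.8 and 46.7 CPM in the LP clusters, with cluster 3 in between. *Foxa1* was highest in cluster 11 with 180.2 and 195 CPM and lowest among ML in cluster 10 with 99.95 and 114 CPM, and 7 of its 10 neighboring steps were separated.

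**Figure D1:**
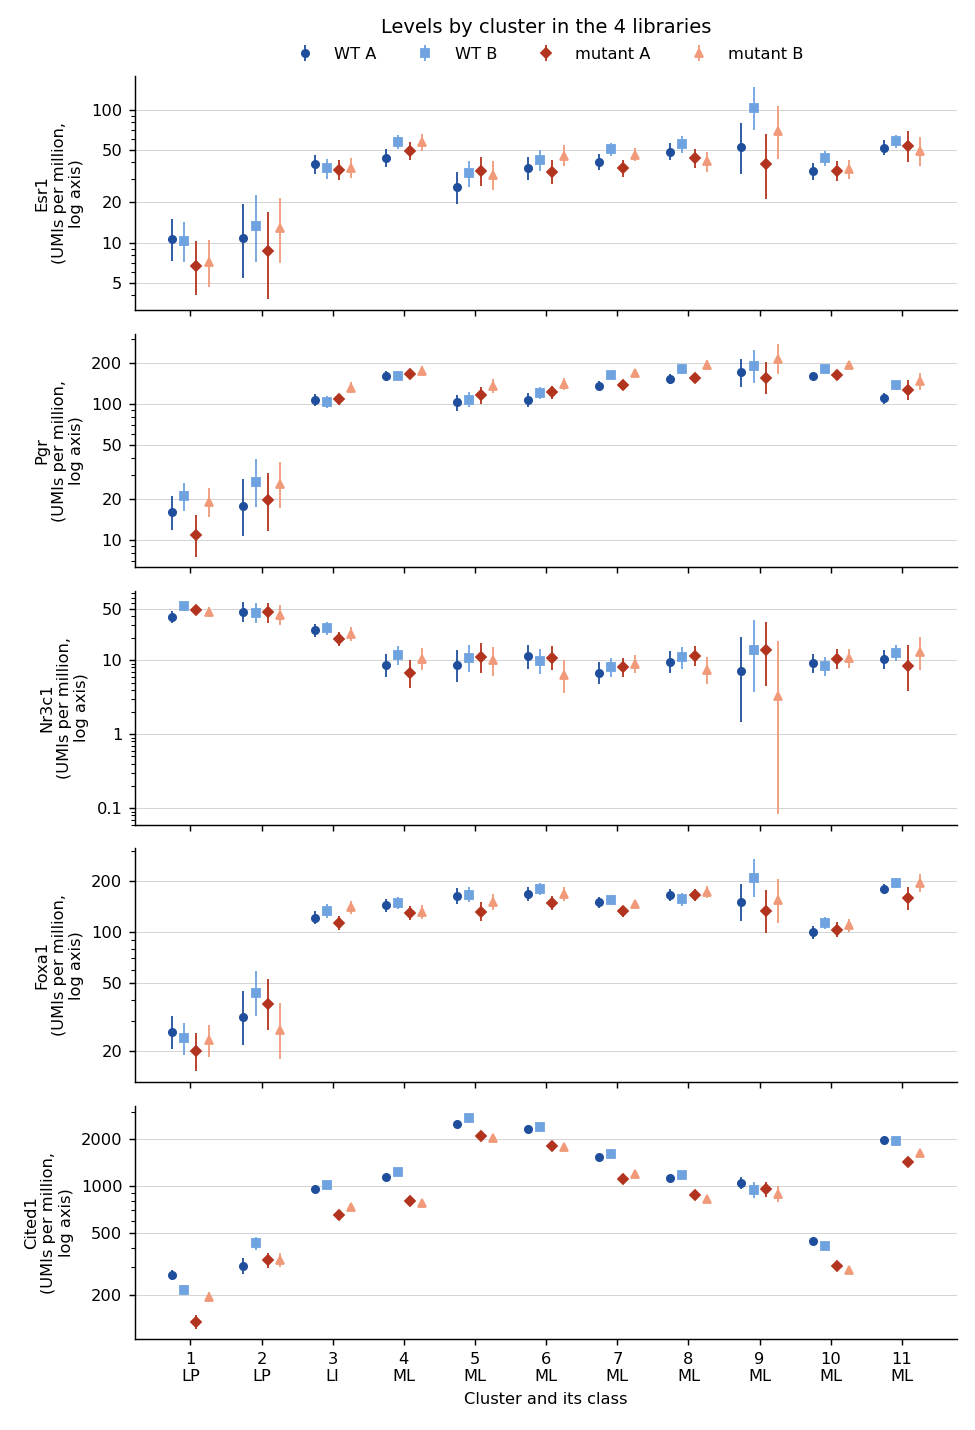
Levels of Esr1, Pgr, Nr3c1, Foxa1 and Cited1 in clusters 1 to 11 (x axis, with the class of each cluster) in CPM on log axes (y axis). Each point is 1 library and each bar its exact Poisson 95% interval. Cited1 is highest in cluster 5 and the mutant points of Cited1 lie below the WT points in 9 of the 11 clusters.

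*Cited1* and *Pgr* went opposite ways over the 8 ML clusters, and *Cited1* and *Foxa1* the same way. Over the 8 clusters in both WT libraries (16 points), the correlation of log2(CPM + 1) was -0.79 for *Pgr* and *Cited1* and 0.71 for *Foxa1* and *Cited1*. In the mutant libraries the values were -0.68 and 0.66. The points share libraries and were clustered on these same cells, so these values only describe the clusters. For *Esr1* and *Cited1* the correlation was -0.23 in WT and 0.00 in the mutant.

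**Figure D2:**
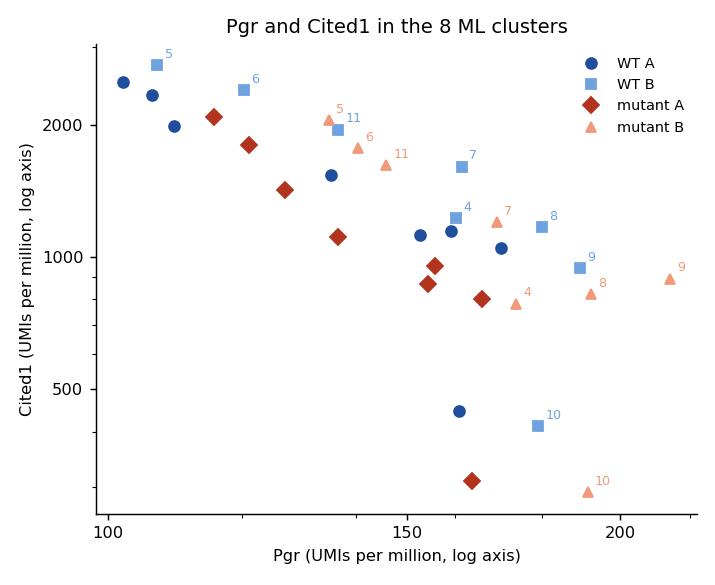
Level of Pgr (x axis) against that of Cited1 (y axis) in the 8 ML clusters, in CPM on log axes, 1 point per cluster and library, with cluster numbers beside the points of both B libraries. Clusters 5, 6 and 11 lie at high Cited1 and low Pgr, cluster 10 lies at the lowest Cited1, and both mutant points lie below both WT points in each cluster but cluster 9.

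ML cells with a marker of division had more *Cited1*. Those with a UMI of the proliferation markers *Mki67* or *Top2a*, 1709 WT and 1469 mutant cells, were set against the rest of the class. *Cited1* stood at 2240.0 CPM in WT cells with such a UMI and 1303 CPM in those without, a log2 ratio of 0.78 (0.76 to 0.80). In WT A, WT B, mutant A and mutant B the ratio was 0.74, 0.82, 0.81 and 0.78, and for *Foxa1* it was 0.24, 0.24, 0.18 and 0.31. *Pgr* was lower in the marked cells of every library, with -0.28, -0.38, -0.22 and -0.20. *Esr1* was also lower in each library, between -0.23 and -0.06, with an interval that reached 0 in 3 of 4 libraries, and *Nr3c1* went both ways. The marked cells had more UMIs, with a median of 5252 against 3390.0 in WT, and the part of depth in these ratios was not tested. The contrast ran over all ML clusters together. The part of the dividing clusters 5 and 6, which were highest in *Cited1*, was not tested either.

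Cluster 11, whose share of cells was 15.1% and 15.6% in WT A and B and 4.69% and 5.02% in mutant A and B, carried more of the partners than other ML cells. In WT its log2 ratio over the other ML cells was 0.52 (0.49 to 0.54) for *Cited1*, 0.36 (0.28 to 0.43) for *Foxa1*, 0.31 (0.17 to 0.45) for *Esr1* and 0.32 (0.01 to 0.63) for *Nr3c1*, and -0.28 (-0.37 to -0.19) for *Pgr*. In the mutant the ratios were 0.54 (0.50 to 0.59) for *Cited1*, 0.36 (0.22 to 0.50) for *Foxa1*, 0.29 (0.02 to 0.56) for *Esr1*, -0.21 (-0.37 to -0.05) for *Pgr* and 0.21 (-0.42 to 0.79) for *Nr3c1*, with *Nr3c1* at -0.21 in mutant library A. Against ML cells without the dividing clusters 5 and 6, the WT ratio of *Cited1* was 0.87.

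Between genotypes, *Cited1* was the member that differed in most clusters, and it was lower in the mutant. Over all cells it stood at 1252 and 1303 CPM in WT libraries A and B and 890.0 and 915 CPM in mutant libraries A and B, and both mutant libraries were below both WT libraries. The log2 ratio of mutant over WT was -0.50 (-0.52 to -0.49), and the 4 pairs of a mutant with a WT library gave -0.55 to -0.45. Within classes the ratio was -0.45 (-0.47 to -0.44) in ML and -0.51 (-0.56 to -0.46) in LI, and -0.67 in LI without the top doublet scores. In LP, where its UMIs could not be told apart from free RNA, it was -0.39 (-0.48 to -0.30), and -0.81 without these cells. A gene was counted as past a fold where it had at least 50 UMIs in either genotype and its mutant libraries both lay on the far side of the WT libraries. In all cells and the 3 classes *Cited1* did not pass a fold of 1.5. It passed a smaller fold, a log2 ratio of 0.32 either way, as lower in all cells, LP, LI, ML and cluster 11. At the smaller fold 3.83% of genes were lower in all cells, 3.58% in LP, 5.78% in LI, 5.49% in ML and 8.11% in cluster 11. Among 16450 genes in all cells the *Cited1* ratio was the 298th from the lowest, and among 15157 genes in ML the 466th.

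By cluster the *Cited1* ratio was below 0 in 11 of 11 luminal clusters, and the share of all genes below 0 in as many was not worked out. Clusters 1 and 2 are LP, where *Cited1* UMIs could not be told apart from free RNA. Cluster 3 is LI, with 49.4% of its cells in the top 6% of doublet scores. These clusters may thus not be instances apart from ML. The ratio ran from -0.59 in cluster 4 to -0.12 in cluster 9, with a median of -0.43. Both mutant libraries were below both WT libraries in 9 clusters, among them clusters 1 and 3. The libraries overlapped in cluster 2 of LP and cluster 9 of ML. In cluster 4 the levels were 1146 and 1228 CPM in WT and 800.5 and 783 CPM in the mutant, in cluster 5 2496 and 2729 CPM in WT and 2082 and 2047 CPM in the mutant and in cluster 10 445 and 412 CPM in WT and 308 and 291 CPM in the mutant. Among all pairs of a gene and a cluster with at least 50 UMIs, 22% had both mutant libraries below and 21.5% above. Being below in 9 or more clusters was seen for 0.827% of genes with at least 50 UMIs, and for 6.4% of the 1219 genes with at least 10000 UMIs, as *Cited1* had. *Cited1* was past the smaller fold in the 9 clusters with separate libraries, and among all such pairs 6.06% were past it as lower. It was past a fold of 1.5 in 1 cluster, cluster 4, by a narrow margin at -0.59 (-0.64 to -0.54), and 1.37% of pairs were. The count of 9 clusters was chosen after the values of *Cited1* were seen.

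**Figure D3:**
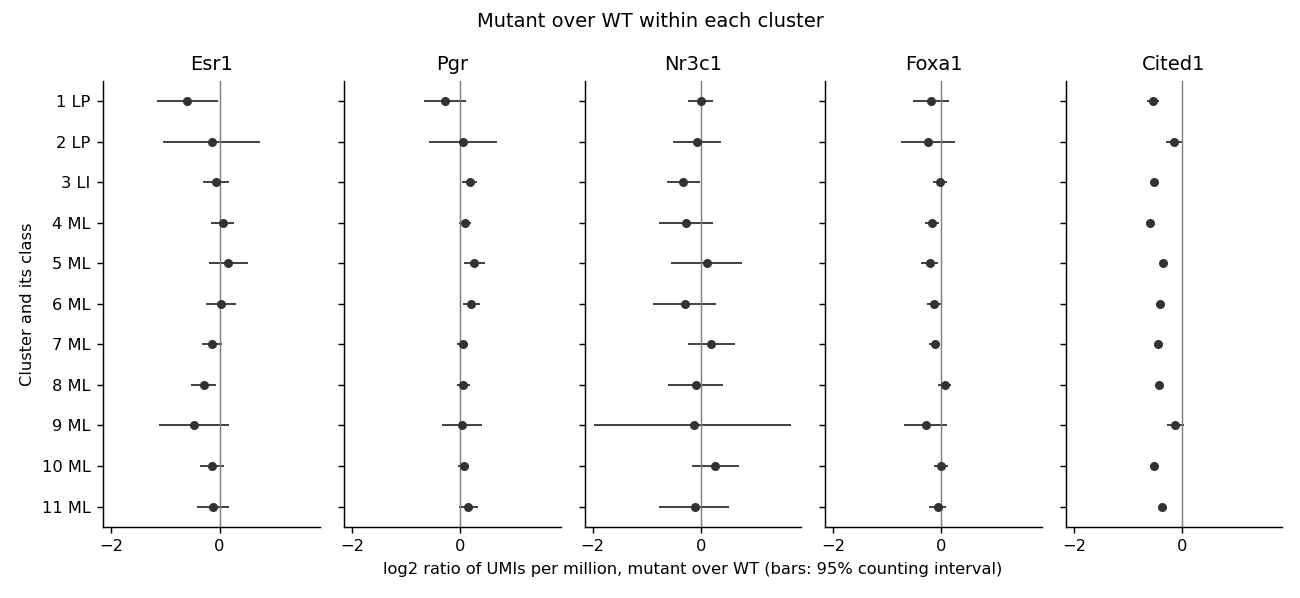
log2 ratio of mutant over WT (x axis, from CPM) for each of the 5 genes within clusters 1 to 11 (y axis). Points are the ratio of the summed libraries and bars the exact 95% counting interval. The Cited1 points lie left of 0 in all 11 clusters, and those of Pgr lie right of 0 in 10. The Pgr libraries overlapped in 7 of the 11 clusters. The shares of all genes on 1 side of 0 in as many clusters were not worked out.

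The lower level of *Cited1* came with more ML cells without a UMI and fewer with many. With each cell thinned to 1000 UMIs, a cell of the ML class held a mean of 1.39, 1.42, 1.02 and 1.00 *Cited1* UMIs in WT A, WT B, mutant A and mutant B. Cells with none were 46.0% and 45.6% of WT and 55.8% and 55.9% of mutant cells. Cells with 3 or more were 20.4% and 20.4% of WT and 13.8% and 13.5% of mutant cells. The libraries of a genotype were within 1 percentage point of each other on both shares. Without thinning, a *Cited1* UMI was found in 75.7% and 78.1% of WT and 68.8% and 70.2% of mutant ML cells, although the mutant cells had more UMIs.

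**Figure D4:**
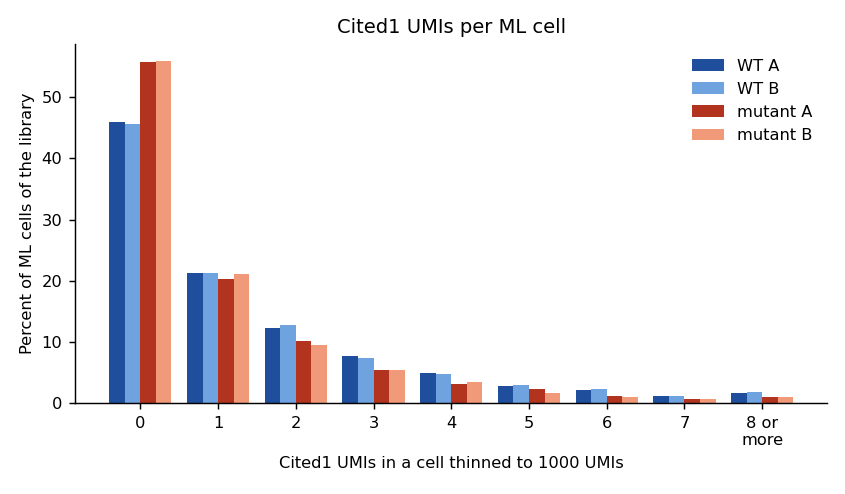
Share of the ML cells of each library (y axis, percent) by their number of Cited1 UMIs after thinning to 1000 UMIs (x axis), 1 bar per library. Both mutant libraries have more cells at 0 than both WT libraries, 55.8% and 55.9% against 46.0% and 45.6%.

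At the WT shares of clusters the *Cited1* ratio was also below 0. With the mutant cells of each cluster weighted to the WT share of cells, the log2 ratio over all cells was -0.42, against -0.50 as measured. It was -0.07 for *Foxa1*, -0.09 for *Esr1*, -0.08 for *Nr3c1* and 0.11 for *Pgr*. In 5 bins of ML cells by UMIs per cell, from the shallowest to the deepest, the *Cited1* ratio was -0.60, -0.61, -0.42, -0.49 and -0.50, so it was below 0 at each depth. The summed immediate-early and heat shock genes of a dissociation stress list also differed between genotypes, with 18784 and 19485 CPM in WT and 15514 and 16235 CPM in the mutant in ML cells, and 7 of its 8 genes had a ratio below 0, *Junb* with -0.35 and *Hspa1a* with -0.35 the lowest but not *Hspa1b* with 0.35. Fibroblast markers in ML cells summed to 15.1 and 13.8 CPM in WT and 5.43 and 4.38 CPM in the mutant, nearly all of it *Dcn*, with *Pdgfra* and *Lum* at 4 or fewer UMIs. Basal markers summed to 15.2 and 17.4 CPM in WT and 14 and 13.4 CPM in the mutant, immune markers to 3.17 and 4.32 CPM in WT and 7.43 and 4.63 CPM in the mutant and endothelial markers to 1.33 and 0.742 CPM in WT and 1.14 and 0.674 CPM in the mutant. The part of the stress genes and of free RNA in the *Cited1* ratio was not tested. In cluster 13 *Cited1* stood at 122 and 1046 CPM in WT and 292 and 397 CPM in the mutant, so the libraries overlapped and the direction turned without WT library B. In cluster 12 it stood at 219 and 285 CPM in WT and 90.1 and 27.4 CPM in the mutant, with separate libraries. The ratio there was -2.17 (-4.14 to -0.66), from 29 WT and 4 mutant UMIs.

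*Foxa1* was slightly lower in the mutant. In all cells it stood at 132 and 139 CPM in WT and 118 and 127 CPM in the mutant, a ratio of -0.15 (-0.19 to -0.10), and in ML at a ratio of -0.12 (-0.16 to -0.07), both with the mutant libraries below the WT libraries. In ML 26.7% of all genes had both mutant libraries below both WT libraries, so this separation was common. That share is not given here for all cells, where 14.2% of genes had a lower ratio than *Foxa1*. By cluster, the *Foxa1* libraries were separate and lower in the mutant in 5 of 11 clusters and overlapped in the other 6, among them cluster 11 with a ratio of -0.07 (-0.22 to 0.09). Of all pairs of a gene and a cluster with at least 50 UMIs, 22% were separate and lower. In LI, where the libraries overlapped, the *Foxa1* ratio was -0.02 (-0.15 to 0.11) and turned to 0.08 without the top doublet scores.

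*Esr1* and *Pgr* overlapped between genotypes in all cells and in ML. The *Esr1* ratio was -0.17 (-0.25 to -0.09) in all cells and -0.13 (-0.22 to -0.05) in ML, and WT library A was within the range of the mutant libraries in both. WT libraries A and B differed from each other by a log2 ratio of 0.27 for *Esr1* in ML, which is more than the difference between genotypes. By cluster the *Esr1* libraries were separate and lower in the mutant in 2 of 11 clusters and overlapped in the other 9. The 2 were cluster 1 at -0.59 (-1.17 to -0.03), just past a fold of 1.5 and with 68 WT and 46 mutant UMIs, and cluster 8 at -0.29 (-0.52 to -0.06). Of all pairs of a gene and a cluster with at least 50 UMIs, 22% were separate and lower, and 1.37% were past a fold of 1.5 as lower. In LI the *Esr1* libraries overlapped, with a ratio of -0.06 (-0.31 to 0.18) that turned to 0.01 without the top doublet scores. The *Pgr* ratio was 0.11 (0.07 to 0.16) in ML, where the level in WT library B was above that in mutant library A. Library B was above library A for *Pgr* in both genotypes, by 0.18 in WT and 0.23 in the mutant, though the letters do not pair libraries. By cluster the *Pgr* ratio was above 0 in 10 of 11 clusters, and the share of all genes above 0 in as many clusters was not worked out. The *Pgr* libraries were separate in 4, clusters 3, 4, 5 and 6, of which cluster 5 had the largest ratio at 0.27 (0.08 to 0.45). Of all such pairs of a gene and a cluster, 21.5% were separate and higher. In LI the *Pgr* ratio was 0.18 (0.04 to 0.32) with separate libraries, and 0.03 without mutant library B and 0.32 without mutant library A, where 23.2% of genes were separate and higher. In LP *Esr1* and *Foxa1* were separate and lower, at -0.46 (-0.94 to 0.01) and -0.21 (-0.48 to 0.07), where 18.1% of genes were. *Esr1* was also past the smaller fold in LP, as were 3.58% of genes, but as a mean over cells its ratio was -0.27. Without the top doublet scores these LP ratios were -0.63 for *Esr1* and -0.48 for *Foxa1*. The *Pgr* libraries overlapped in LP, with a ratio of -0.18 (-0.51 to 0.15), and -0.48 without the top doublet scores. The UMIs of *Esr1*, *Foxa1* and *Pgr* in LP could not be told apart from free RNA.

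*Nr3c1* did not separate in LP, the class in which it was highest. The log2 ratio there was -0.01 (-0.22 to 0.19), an interval that allows for a level up to 0.22 lower or 0.19 higher on the log2 scale. It was -0.04 (-0.22 to 0.15) in ML. In LI it was -0.32 (-0.63 to -0.01) with both mutant libraries lower, where 22.5% of genes were separate and lower. By cluster the ratio was separate and lower in 1 and separate and higher in 2 of the 11 clusters, and each genotype had at most 100 UMIs in the last 2. Of all pairs of a gene and a cluster with at least 50 UMIs, 22% were separate and lower and 21.5% separate and higher.

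**Figure D5:**
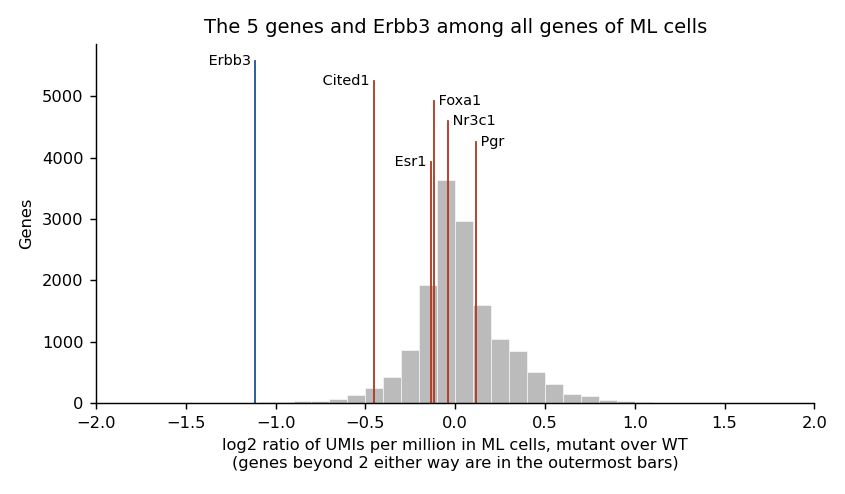
Number of genes (y axis) by log2 ratio of mutant over WT in ML cells (x axis, from CPM) for the 15157 genes with at least 50 UMIs in the genotype with more. Lines mark the 5 genes and Erbb3. Cited1 at -0.45 lies in the lower tail, and the other 4 lie between -0.13 and 0.11 near the middle.

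The other genes of steroid signaling were read from lists of related receptors, cofactors, chaperones, target genes and enzymes. In ML, 2.86% of all genes were higher and 1.57% lower in the mutant at a fold of 1.5 with separate libraries, and the median ratio of all genes was 0.00. At the smaller fold the share of genes that were higher was 11.4%. None of the 5 genes passed the fold of 1.5. List genes were not weighted to the WT shares of clusters, so the part of those shares in their ratios was not tested.

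Of 11 other steroid and steroid-related receptors, 8 had enough UMIs in ML, 1 was higher at a fold of 1.5 and none lower, with a median ratio of -0.02. The 1 that was higher was *Esrrb*, an orphan receptor related to the estrogen receptor. It stood at 10.5 and 10.1 CPM in WT and 19.3 and 19.3 CPM in the mutant, a ratio of 0.91 (0.76 to 1.06). The related *Esrrg* had 2.36 and 2.80 CPM in WT and 1.96 and 1.85 CPM in the mutant and was lower at the smaller fold only, with a ratio of -0.44 (-0.84 to -0.05). The second estrogen receptor, *Esr2*, had 1 UMI in WT and 0 in mutant ML cells.

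Of 8 luminal cofactors 6 had enough UMIs in ML and none passed the fold of 1.5, with a median ratio of 0.11. *Cited4* and *Cited2*, which belong to the same family of CBP and p300 binding proteins as *Cited1*, had ratios above 0 in ML. *Cited4* stood at 40.3 and 41.4 CPM in WT and 52.2 and 53.0 CPM in the mutant, a ratio of 0.36 (0.28 to 0.45) that passed the smaller fold, and in LP its ratio was 0.34 (0.28 to 0.40). *Cited2* stood at 16.4 and 18.7 CPM in WT and 20.7 and 20.5 CPM in the mutant, a ratio of 0.23 (0.10 to 0.36). In LP, where *Cited2* was higher than in ML with 268 and 281 CPM in WT and 239.7 and 264 CPM in the mutant, its ratio was -0.12 (-0.21 to -0.04), below 0 as for *Cited1*. *Gata3*, the luminal transcription factor that acts with *Esr1* and *Foxa1*, stood at 1190.2 and 1174 CPM in WT and 1304 and 1264 CPM in the mutant, a ratio of 0.12 (0.10 to 0.13).

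None of the 10 coactivators or 6 corepressors, all with enough UMIs, passed the smaller fold in ML. Their median ratios were -0.02 and 0.03. The largest ratios were -0.18 for *Ncoa7* and 0.11 for *Ncoa2* among the coactivators and 0.07 for *Nrip1* among the corepressors. Of 7 chaperones and cochaperones of the receptors none passed a fold of 1.5 in ML, and 2 were higher at the smaller fold. These were *Hspa8*, with 93.2 and 84.8 CPM in WT and 124 and 128 CPM in the mutant, and *Fkbp5*, with 2.39 and 1.89 CPM in WT and 2.69 and 3.16 CPM in the mutant. In LP, *Hspa8* passed the fold of 1.5 with 151 and 135 CPM in WT and 204 and 224 CPM in the mutant, where 2.23% of genes were higher.

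Of 11 genes of the estrogen response, 10 had enough UMIs in ML and 2 were higher at a fold of 1.5, with a median ratio of 0.10. *Greb1*, a cofactor and target of the estrogen receptor, stood at 3.98 and 3.37 CPM in WT and 5.75 and 6.03 CPM in the mutant, a ratio of 0.69 (0.42 to 0.95). *Cxcl12*, a chemokine, stood at 34.4 and 36.1 CPM in WT and 54.5 and 60.4 CPM in the mutant, a ratio of 0.71 (0.62 to 0.79), and in LP at a ratio of 0.97 (0.39 to 1.58), also past the fold of 1.5. *Myb* had the lowest ratio of the list at -0.29 (-0.38 to -0.20). Of 5 genes of the progesterone response 3 had enough UMIs in ML and none passed either fold. *Areg*, the ErbB ligand that luminal cells secrete under estrogen, stood at 3673 and 3741 CPM in WT and 4356 and 4635 CPM in the mutant, a ratio of 0.28 (0.27 to 0.29). The paper lists *Areg* among transcripts lower in WT cluster 11, and that cluster had a smaller share in the mutant. *Wnt4*, the paracrine signal below the progesterone receptor, stood at 101 and 97.6 CPM in WT and 91.9 and 81.3 CPM in the mutant, a ratio of -0.20 (-0.26 to -0.14). *Tnfsf11*, which encodes RANKL, had 0 UMIs in ML cells of every library.

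Of 12 genes of the glucocorticoid response, all with enough UMIs in ML, 1 was higher at a fold of 1.5 and 3 at the smaller fold, with a median ratio of 0.10. *Sgk1*, a kinase gene that glucocorticoids induce, stood at 144 and 148 CPM in WT and 227 and 248 CPM in the mutant, a ratio of 0.71 (0.66 to 0.75). *Tsc22d3*, which encodes GILZ, had a ratio of 0.43 (0.31 to 0.55) and *Fkbp5* one of 0.46 (0.10 to 0.83), and *Zbtb16* had -0.29. Of 8 steroid-converting enzymes 3 had enough UMIs in ML, none passed the smaller fold, and the median ratio was -0.13. The estradiol dehydrogenases *Hsd17b11* and *Hsd17b4* had ratios of -0.19 and -0.13. The aromatase gene *Cyp19a1* had 0 UMIs.

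The genes whose profile over clusters 1 to 11 in both WT libraries (22 points) was most like that of each member were taken from 9855 genes with at least 500 WT UMIs. For *Cited1* these were *Psmb9*, *Fgb* and *Grb14*, with correlations of log2(CPM + 1) of 0.965, 0.963 and 0.955 in WT libraries and 0.908, 0.951 and 0.894 in mutant libraries. *Fgb* encodes a fibrinogen chain and *Psmb9* a subunit of the immunoproteasome. For *Pgr* they were *Cxcl15*, *Lasp1* and *Ndufa7* (0.983, 0.981 and 0.981), for *Foxa1* *Fam25c*, *Cldn10* and *Tmem56* (0.984, 0.982 and 0.98) and for *Esr1* *Sort1*, *Rbm20* and *Cdk19* (0.964, 0.959 and 0.958). For *Nr3c1*, which runs the other way from ML to LP, they were *Chchd7*, *Apobec3* and *Ogfrl1* (0.976, 0.974 and 0.974). Which genes came first depended on the measure. By rank correlation 1 of these 15 genes, *Psmb9*, was still among the 3 most like its member, and in the mutant libraries 3 were, *Cxcl15*, *Cldn10* and *Fgb*. *Sort1* was 48th for *Esr1* by rank correlation and 344th in the mutant libraries, and *Rbm20* was 100th and 14th. The points share libraries and span the step from LP to ML, whose part in these values was not tested.

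Within ML clusters a UMI of *Cited1* went weakly with a UMI of *Foxa1* and against one of *Pgr*. After thinning, the odds ratio over clusters for a *Foxa1* and a *Cited1* UMI in the same cell was 1.33, 1.255, 1.22 and 1.32 in WT A, WT B, mutant A and mutant B. For *Pgr* and *Cited1* it was 0.87, 0.85, 0.86 and 0.82, and for *Esr1* and *Pgr*, with 24 to 41 cells holding both, it was 1.05, 0.75, 1.18 and 0.73. Cells of 1 library are not replicates and the counts are sparse, so these values are given as a description.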

How the data were processed

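The 4 droplet libraries of sorted luminal cells, 2 per genotype, came as 1 table. The authors deposited it as a signal, the UMIs of a cell times a factor of that cell, with each cell's library, cluster and class. Per the submitters' processing notes, CASAVA 1.8, bcl2fastq 2.20, GSNAP 2013-10-10 and the build GRCm38 were used. Clusters came from Partek Flow, and filters on cells are not given in the sources used here.

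UMIs were recovered from the deposited signal with the smallest value above 0 in a cell taken as 1 UMI. All 60853305 values above 0 came out whole within 0.02, with a largest distance of 0.00989. They were summed by library and class or cluster and scaled to CPM. Intervals at 95% are exact Poisson for levels, conditional binomial for ratios and Clopper-Pearson for shares. The fold rule asks for a fold of 1.5 in CPM, 50 or more UMIs in the higher genotype and no overlap of libraries. Cells were thinned with seed 1. Every deposited cell was used. Scrublet in scanpy 1.11.5 called 6 of 32439 cells (0.0185%), too few for its calls to be used, so no doublets were removed and only the order of its scores was used, which was not checked against known doublets.

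Named genes were the 5 members, the 3 genes most like each, up to 4 genes per list with the largest ratio in ML, list genes past the fold rule in ML or LP, and *Erbb3*, and 1 gene that the rule names is not reported here. Markers, *Esr2*, *Tnfsf11* and *Cyp19a1* were named after their values were seen. The members and lists were chosen with earlier results of these data known. Promoter windows were RefSeq's on GRCm38.p6 and gene positions those of GENCODE mouse release 21. Python 3.11.15, numpy 2.4.6, pandas 2.3.3, scipy 1.17.1 and matplotlib 3.10.9 were used.

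Alternatives left out each library, the 10% of cells with the fewest UMIs or the 6% with the highest doublet scores, or changed the weighting, scaling, fold, minimum of UMIs or thinning. Values without LI cells, the bins of UMIs per cell and the count over 9 clusters were chosen after seeing the data.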

Additional observations from a re-analysis of the deposited data

How the results depend on the processing

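No member ratio between genotypes with separate libraries in all cells, LP, LI or ML changed sign under the alternatives run. Several of those with overlapping libraries did. Where libraries are separate, leaving out 1 of them cannot turn the sign, so only the alternatives on cells, weighting and scaling could have done so. Without WT library B the *Esr1* ratio in ML was 0.02 and that of *Nr3c1* 0.05, and without mutant library B that of *Pgr* was -0.01 in ML and -0.06 in all cells. *Foxa1* in ML ranged from -0.18 to -0.07 with 1 library left out. Leaving out 1 library gave a *Cited1* ratio of -0.53 to -0.47 in all cells and -0.48 to -0.42 in ML, and the mean over cells gave -0.57 in all cells. In LP, leaving out 1 library gave -0.58 to -0.26 and leaving out the highest doublet scores gave -0.81 for *Cited1*. At WT cluster shares, leaving out 1 library gave -0.45 to -0.39 for *Cited1* and -0.15 to -0.00 for *Foxa1*, and turned the sign of the others, with -0.20 to 0.03 for *Esr1*, -0.01 to 0.22 for *Pgr* and -0.17 to 0.03 for *Nr3c1*. No paired analysis was possible because the columns of the table carry no replicate numbers.

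The WT log2 ratios of ML over LP moved with the cells used and kept their sign. Without the 10% of cells with the fewest UMIs they were 1.86 for *Esr1*, 2.31 for *Foxa1* and 2.24 for *Cited1*. Without the highest doublet scores they were 2.35 for *Esr1*, 3.34 for *Pgr*, 2.96 for *Foxa1* and 3.21 for *Cited1*. As means over cells they were 2.64, 3.40, 3.12 and 3.34. The cause was not tested. Against ML without clusters 5 and 6, cluster 11 had WT ratios of 0.87 for *Cited1* and 0.42 for *Foxa1*.

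The ratio of the mutant to the WT share of ML cells with a UMI, after thinning to 1000 UMIs, was 0.814 for *Cited1*, 0.881 for *Esr1*, 0.969 for *Foxa1*, 0.923 for *Nr3c1* and 1.12 for *Pgr*. Without thinning it was 0.904 for *Cited1* and turned to 1.07 for *Esr1*, 1.02 for *Foxa1* and 1.14 for *Nr3c1*, where the mutant cells are deeper. Thinned to 500 UMIs it was 0.771 for *Cited1*, 0.805 for *Foxa1* and 0.716 for *Nr3c1*, and to 2000 UMIs 0.851 for *Cited1* and 1.01 for *Nr3c1*, which turned.

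Genes higher in the mutant at a fold of 1.5 numbered 532 in all cells and 434 in ML, and lower ones 193 and 238. In the same order these counts were 967, 812, 404 and 486 with at least 20 UMIs, 171, 138, 45 and 62 with at least 200, 2086, 1724, 630 and 832 at the smaller fold and 68, 57, 40 and 56 at 2. Leaving out 1 library gave 382 to 848, 321 to 703, 154 to 319 and 153 to 372. Without WT library A the genes that were higher numbered 819 and 686, without mutant library B 848 and 703, and the lower ones numbered 319 and 372 without mutant library B and 153 in ML without WT library B.

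Rank correlations with the most similar gene were 0.867 for *Esr1* and *Sort1*, 0.851 for *Pgr* and *Cxcl15*, 0.823 for *Nr3c1* and *Chchd7* and 0.846 for *Foxa1* and *Fam25c*. In the mutant libraries the Pearson correlations were 0.856, 0.99, 0.911 and 0.973, and 0.908 for *Cited1* and *Psmb9*. With 1 pool of mice per genotype, no value here measures the spread between mice, and depth limits *Nr3c1* most, with 548 WT and 429 mutant UMIs in ML.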
